A study of Brassica napus with 9 samples.

Results

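Gene expression in guard cell protoplasts of Brassica napus was compared between 60 min and 15 min of exposure to abscisic acid (ABA), across all genes of the deposited count table. The libraries were chosen by their labels alone and are 6 of the 9 libraries of the series: replicates 1, 2 and 3 of ABA 60 min, against replicates 1, 2 and 3 of ABA 15 min. The 3 mock-treated libraries were not used. Both groups are guard cells from leaves of the double-haploid line DH12075 that had their walls digested away, received 10 µM ABA and were then kept in light at room temperature. The RNA of a library came from a pool of 3 to 5 protoplast preparations. The study describes 3 biological samples that each included all treatments, and its model holds the replicate. It does not state that 1 pool was divided among the treatments, or what else a replicate number shares. Because no library kept for 60 min without ABA enters this comparison, a longer time in ABA and a longer time as protoplasts in the light cannot be told apart.

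Guard cells are the paired cells that open and close the stomatal pores of leaves, and ABA is the drought hormone that makes them close the pore. In the core pathway, worked out in Arabidopsis, ABA binds receptors of the PYR/PYL family, and the bound receptors inhibit clade A protein phosphatases 2C (PP2Cs). The PP2Cs otherwise hold SnRK2 kinases such as OST1 inactive. Released SnRK2 kinases phosphorylate anion channels and bZIP transcription factors of the ABF group, which switch on ABA-responsive genes. B. napus carries an A and a C subgenome, so an Arabidopsis gene usually has several counterparts, here called copies. The part of a gene ID after Bna names the subgenome and chromosome, or nn where the chromosome is not assigned.

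The 6 libraries were of similar depth. Counts summed to 111165344, 122950146 and 121265229 at 60 min, against 123968001, 116707903 and 123854621 at 15 min. Of 101040 genes in the table, 51117 had enough counts to be tested and held 99.95% of all counts, 24626 had too few counts, and 25297 had none in these libraries. Markers of guard cells with an ID in the study's tables, namely the copies of ALMT12, MPK12 and OST1, summed to 1078, 614 and 2323 CPM at 60 min, against 304, 234 and 1039 CPM at 15 min. CPM are counts per a fixed total of reads, after scaling of the libraries. These markers were present in all 6 libraries and highest in replicate 3 at both times. The single copy of CAB1 with an ID, a chlorophyll-binding protein abundant in mesophyll, had 47.5, 54.7 and 33.3 CPM at 60 min, against 37.2, 45.1 and 21.3 CPM at 15 min. From bulk RNA alone, a different number of cells of a type and a different amount of RNA per cell cannot be told apart. The study's methods report that the protoplasts were counted before treatment and were nearly pure guard cells. All 7 guard cell copies belong to the lists of ABA genes below, and the part of either marker in the results was not tested. Marker genes of other epidermis, vasculature or dividing cells have no ID in the tables used and were not analysed here.

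Between the 2 exposures 10169 genes differed at an adjusted p under 0.05 in edgeR's quasi-likelihood test, with Benjamini-Hochberg adjustment over all genes tested and the replicate number as a block. That is 19.9% of the genes tested: 6435 genes, or 12.6%, were higher at 60 min and 3734 genes, or 7.3%, were lower. The rises were also the larger changes. Among the genes past the threshold, 1430 were more than 2-fold higher at 60 min and 380 more than 2-fold lower, and past 4-fold there were 268 higher and 22 lower. The median log2 fold change was 0.59 for genes called higher, -0.49 for genes called lower and -0.01 for all genes tested. Without adjustment 17270 genes had a p under 0.05. The plot of change against level shows rises that reach further from 0 than the falls.

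**Figure D1:**
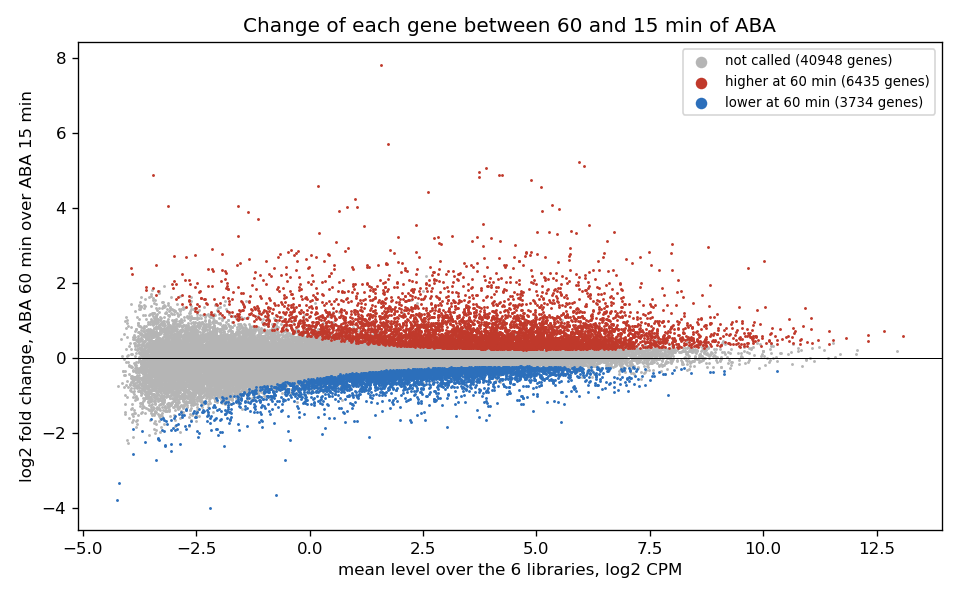
Each point is 1 of the 51117 genes tested, with its mean level over the 6 libraries (log2 CPM) on the horizontal axis and its log2 fold change, ABA 60 min over ABA 15 min, on the vertical axis. Red points are the 6435 genes called higher at 60 min, blue points the 3734 called lower, and grey points were not called.

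The number of calls rests on the pairing of libraries by replicate. Of the 10169 genes called, 10157 moved the same way in all 3 replicates, as did 54.8% of all genes tested. In 43.6% of the genes called, the CPM of the 60-min and 15-min libraries did not overlap, against 13.3% of all genes tested. In the other genes called, the groups overlapped. A fit without the replicate block called 94 genes, 93 of them higher at 60 min. When replicate 1 was left out at both times 4029 genes were called, 3144 higher and 885 lower, and without replicate 2 the genes called lower numbered 2285. DESeq2's Wald test with the same block called 8353 genes, of which 8106 were among the 10169.

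The split between rises and falls depends on how the libraries are scaled. Genes called higher took 41.8, 44.1 and 44.1% of all counts at 60 min, against 30.6, 35.5 and 32.7% at 15 min. Genes called lower took 4.06, 3.62 and 3.69% at 60 min, against 6.74, 5.60 and 6.25% at 15 min. Scaling with trimmed means (TMM), used throughout, gave the 60-min libraries factors of 0.932, 0.845 and 0.976, against 1.13, 0.968 and 1.19 for the 15-min libraries. With TMM 63.3% of the calls were higher at 60 min. With upper-quartile scaling 47.4% were higher, and with total counts alone 17.1%, where the median log2 fold change of all genes was -0.27. All changes below are relative to the TMM scale.

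Genes with many reads rose most often. With the genes tested ranked by mean level and divided into 10 equal groups, 37.5% of the highest group were higher at 60 min and 5.28% lower. In the lowest group 0.861% were higher and 1.13% lower, and there the median standard error of a log2 fold change was 0.46, against 0.079 in the highest group. Genes with few reads therefore needed larger changes to pass the test. The fold changes also shifted with level, apart from which genes passed. Their median on the log2 scale was -0.146 for genes with the fewest reads and 0.176 for those with the most. It increased at every step across the 10 groups, and the reason was not tested. Calls were spread over both subgenomes, with 20.2% of 24430 tested genes called in the A subgenome and 19.7% of 26558 in the C subgenome. The median log2 fold change was -0.01 in the A subgenome and -0.02 in the C subgenome.

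The known ABA genes in what follows come from lists in the study's tables. The lists share genes, among them copies of ABF2, ABF4, ANAC072, AFP1 and MYC2, so their counts are not separate from each other. The first table holds 86 B. napus copies of ABA-related genes that the study selected for changing strongly in these same samples, so their direction here is not independent evidence. Copies that did not pass that selection are absent from it. Where all or both copies of a gene are named below, only the listed copies are meant. Of the 86 genes, all tested, 67 were higher at 60 min and 18 were lower. These shares, and the counts of each list below, are descriptions beside the 12.6% and 7.3% of all genes tested and carry no test. The groups of the pathway moved in different directions, which the plot of members by list shows.

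**Figure D2:**
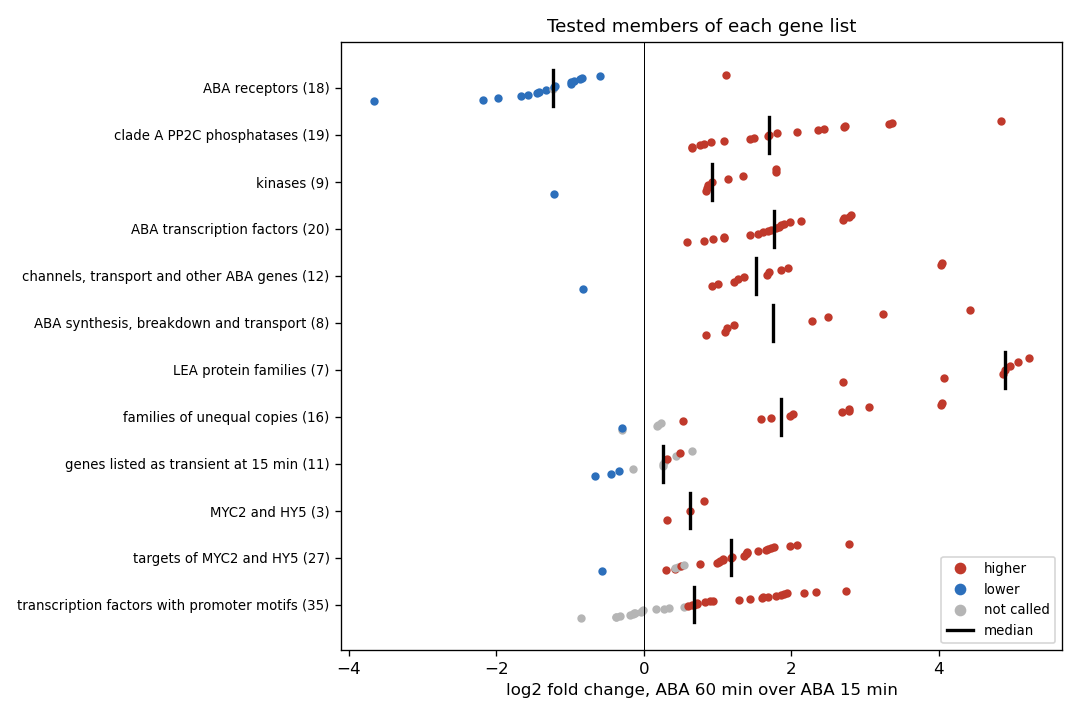
Each point is a tested gene of the list named at the left, with the number of tested genes in brackets and its log2 fold change, ABA 60 min over ABA 15 min, on the horizontal axis. Red, blue and grey mark genes called higher, called lower and not called, and the black bar is the list's median, which is -1.23 for the receptors and 4.89 for the LEA protein families.

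Most of the listed ABA receptor copies were lower at 60 min. Receptor copies that did not pass the study's selection for strong change are absent from this list. Of 18 receptor copies 16 were lower, 1 was higher and 1 did not pass the test, with a median log2 fold change of -1.23, against -0.01 over all genes tested. In 11 of the 18 every 60-min library was below every 15-min library. Of all genes tested, 13.3% had groups that did not overlap, counting both directions. The PYL6 copy BnaA04g29300D had 18.0, 12.1 and 18.4 CPM at 60 min, against 46.2, 27.9 and 59.8 CPM at 15 min. The groups do not overlap, and the log2 fold change was -1.43 ± 0.10 (SE; edgeR adjusted p = 8.37e-05). This gene was singled out after its values were seen.

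The receptor copies with the largest falls were copies of PYL6 with few reads. BnaA05g05420D had 0.048, 0.058 and 0.135 CPM at 60 min, against 1.08, 0.142 and 2.11 CPM at 15 min. At 15 min replicate 2 was far below the other replicates and only just above the 60-min libraries, and the log2 fold change was -3.66 ± 0.45 (edgeR adjusted p = 0.00109). BnaC04g04830D had 0.232, 0.183 and 0.355 CPM at 60 min, against 1.20, 0.522 and 1.92 CPM at 15 min, which is -2.18 ± 0.24 on the log2 scale. Both were among the 3 largest falls of all genes that fell in every replicate and averaged 50 counts or more per library. BnaC03g22610D had 0.222, 0.058 and 0.042 CPM at 60 min, against 0.436, 0.142 and 0.672 CPM at 15 min. Here the groups overlap, and its call (-1.97 ± 0.56, adjusted p = 0.0405) was lost without replicate 3, where the edgeR adjusted p was 0.102.

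PYL4 fell in all 4 of its listed copies, with log2 fold changes from -1.45 to -0.59. The copy with the smallest fall, BnaA03g17720D, had 32.4, 25.6 and 34.9 CPM at 60 min, against 45.8, 42.6 and 50.8 CPM at 15 min. Of the 4 PYL5 copies 3 were lower, BnaC09g49910D by the most, with -1.67 ± 0.23. The fourth, BnaAnng40650D, had 0.222, 0.106 and 0.177 CPM at 60 min, against 0.308, 0.186 and 0.807 CPM at 15 min, and did not pass the test (-1.23 ± 0.40, edgeR adjusted p = 0.0652). Both listed PYR1 copies were lower, BnaAnng35310D by -1.20 ± 0.15 and BnaC08g11070D by -0.98 ± 0.11 on the log2 scale. Single copies of PYL1, at -0.96 ± 0.11, and of PYL2, at -0.84 ± 0.18, were lower too.

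PYL9 was the exception among the listed receptor copies. Its copy BnaA10g00540D had 46.4, 25.2 and 133 CPM at 60 min, against 22.4, 11.6 and 58.9 CPM at 15 min. The ranges overlap because replicate 3 was the highest at both times, but within each replicate the 60-min library was higher, and the log2 fold change was 1.12 ± 0.07 (edgeR adjusted p = 5.89e-05). The direction of all 18 receptor copies was kept under each scaling tried.

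The phosphatases that the receptors inhibit moved the other way. All 19 listed clade A PP2C copies were higher at 60 min, with a median log2 fold change of 1.70. In 18 of them every 60-min library was above every 15-min library, beside 13.3% of all genes tested without overlap in either direction. The largest rises were in the HAI group, whose Arabidopsis members are named as highly ABA-induced. AIP1 copy BnaC05g05180D had 21.6, 30.9 and 24.5 CPM at 60 min, against 0.758, 1.56 and 0.529 CPM at 15 min. That is a 28.7-fold difference (log2 4.84 ± 0.20, edgeR adjusted p = 7.91e-06) and the largest among the phosphatases listed. The other AIP1 copies, BnaA10g04840D and BnaA09g49440D, rose by 2.72 ± 0.13 and 2.44 ± 0.17 on the log2 scale.

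HAI1 rose in both listed copies. BnaC09g34350D had 53.3, 65.0 and 57.4 CPM at 60 min, against 3.14, 7.97 and 7.07 CPM at 15 min (log2 3.36 ± 0.20). BnaA10g12140D had 108, 108 and 105 CPM at 60 min, against 9.85, 9.46 and 12.9 CPM at 15 min (log2 3.33 ± 0.11). The groups are far apart in both copies, and the 2 changes differ by less than their errors. HAI3 had few counts, with 0.126, 0.212 and 0.735 CPM at 60 min, against 0.064, 0.124 and 0.163 CPM at 15 min. Its call (1.44 ± 0.41, edgeR adjusted p = 0.0401) was lost without replicate 1 (adjusted p = 0.0945) and without replicate 3 (adjusted p = 0.305).

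AHG3, the PP2C also called PP2CA, rose in 3 copies. BnaA05g27660D had 437, 434 and 463 CPM at 60 min, against 90.0, 74.0 and 178 CPM at 15 min, and BnaC05g41830D had 397, 390 and 455 CPM at 60 min, against 64.3, 51.8 and 159 CPM at 15 min. The 60-min levels lay close together, while at 15 min replicate 3 was well above the others. The log2 fold changes of the 3 AHG3 copies were between 2.07 and 2.72.

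ABI1, a founding member of the family, had the smallest rises of the list. Its copy BnaC01g18020D had 455, 492 and 553 CPM at 60 min, against 254, 311 and 318 CPM at 15 min (log2 0.77 ± 0.08). The 4 ABI1 copies rose by 0.65 to 0.82 on the log2 scale. Between these extremes, both ABI2 copies rose by 1.70 ± 0.08 and 1.68 ± 0.07, the HAB1 copies by 1.81 ± 0.15 and 1.49 ± 0.14, and the HAB2 copies by 0.91 ± 0.07 and 1.08 ± 0.09. In the plot of receptors and phosphatases, the copies of ABI1, HAB2, ABI2 and HAI1 each lay next to each other. The copies of HAB1, AHG3 and AIP1 had copies of other genes between them, with AIP1 spread over 2.40 log2 units.

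**Figure D3:**
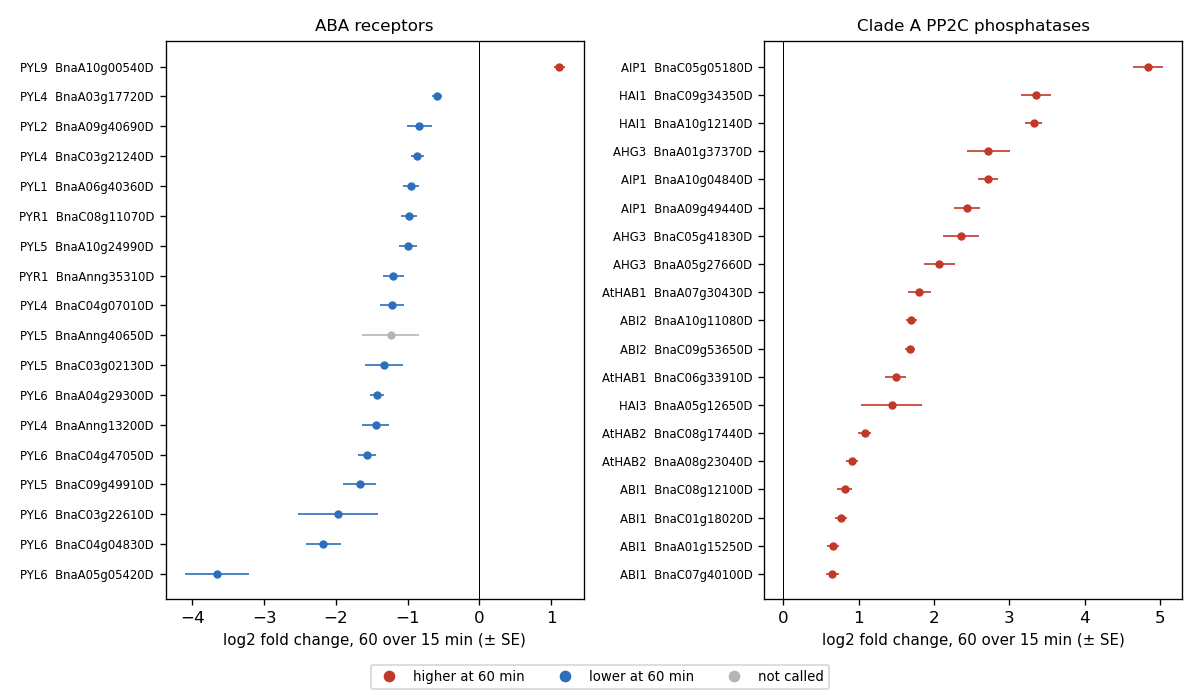
Log2 fold change, ABA 60 min over ABA 15 min, of listed copies of ABA receptors (left) and clade A PP2Cs (right). Bars are 1 standard error from the edgeR fit on 3 replicates a group. Of 18 receptor copies 16 are lower at 60 min, and all 19 phosphatase copies are higher.

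The listed kinases of the pathway were mostly higher at 60 min, in 8 of 9 copies, with a median log2 fold change of 0.92. OST1, the SnRK2 kinase needed for stomatal closure by ABA, had 9.40, 5.91 and 14.5 CPM at 60 min in copy BnaA01g03110D, against 2.35, 2.38 and 3.56 CPM at 15 min. This was a rise of 1.79 ± 0.14 on the log2 scale (edgeR adjusted p = 0.000159), with no overlap between the groups. The second copy, BnaC01g04370D, rose by 1.35 ± 0.09. MPK12, a MAP kinase found mainly in guard cells, rose in its 3 listed copies by 0.87 to 1.14. The groups overlapped in CPM because replicate 3 was high at both times. The smallest of these calls, BnaC04g50710D at 0.87 ± 0.19, was lost without replicate 1 (edgeR adjusted p = 0.0916).

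Of the remaining kinases, the receptor-like kinase RPK1 rose in both copies, by 0.86 ± 0.07 and 0.84 ± 0.08. CIPK14, a kinase bound by calcium sensors, rose by 1.79 ± 0.19 in BnaAnng00100D. CIPK23, of the same family, was the only kinase listed that fell. It had 0.415, 0.703 and 0.144 CPM at 60 min, against 1.09, 0.983 and 0.624 CPM at 15 min, and its call (-1.22 ± 0.30, edgeR adjusted p = 0.0248) was lost without replicate 1 (adjusted p = 0.145).

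All 20 listed copies of ABA-related transcription factors were higher at 60 min, with a median log2 fold change of 1.76. In 19 of them the groups did not overlap, beside 13.3% of all genes tested in either direction. ABF3, a bZIP factor that binds ABA-responsive promoter elements, was among the largest rises. Its copy BnaC07g44670D had 379, 244 and 681 CPM at 60 min, against 44.1, 36.8 and 113 CPM at 15 min. The 3 ABF3 copies rose almost equally, by 2.81 ± 0.11, 2.71 ± 0.08 and 2.70 ± 0.10 on the log2 scale. ABF4 rose in its 5 copies of this list by 0.94 to 1.90, and ABF2 in both copies, by 1.86 ± 0.21 and 1.44 ± 0.29. ABI5, known mainly from seeds, had 4.14, 3.19 and 3.01 CPM at 60 min, against 2.79, 1.51 and 0.909 CPM at 15 min (log2 1.09 ± 0.20).

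ANAC072, also called RD26, is a NAC factor of dehydration responses. Its copy BnaA01g16400D had 52.0, 62.0 and 55.9 CPM at 60 min, against 7.18, 8.84 and 8.75 CPM at 15 min. The replicates agreed closely, and the rise of 2.78 ± 0.08 on the log2 scale (edgeR adjusted p = 1.70e-06) also passed without the replicate block (adjusted p = 0.00869). MYB44 rose in 3 copies by 1.55 to 2.12, and WRKY2 by 1.08 ± 0.09. The smallest rise of the list was that of the homeobox factor HB6, which had 86.6, 62.9 and 166 CPM at 60 min, against 52.9, 35.2 and 142 CPM at 15 min. Its call (0.59 ± 0.12, edgeR adjusted p = 0.0102) was lost without replicate 1 (adjusted p = 0.0838), without replicate 2 (0.0518) and with total count scaling (0.0512).

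Among the listed ion channels, transporters and other ABA genes 11 of 12 copies were higher at 60 min. Their median log2 fold change was 1.51. The largest rises were in AFP1, which encodes a protein that binds ABI5 and promotes its breakdown. BnaC06g25430D had 2.78, 1.73 and 5.44 CPM at 60 min, against 0.143, 0.177 and 0.271 CPM at 15 min. The tested AFP1 copies rose by 4.04 ± 0.22 and 4.03 ± 0.19, or about 16.4-fold.

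ALMT12, the anion channel that releases malate as stomata close, rose in both copies. BnaC07g34970D had 452, 277 and 1059 CPM at 60 min, against 95.7, 102 and 418 CPM at 15 min (log2 1.67 ± 0.17). The groups overlap, since replicate 3 at 15 min was above replicate 2 at 60 min, but each replicate was higher at 60 min. The other ALMT12 copy, BnaA03g43490D, rose by 1.86 ± 0.15. ABAR, the H subunit of magnesium chelatase, rose in both copies, by 1.95 ± 0.14 and 1.69 ± 0.10. The plastid protein fibrillin (FIB) rose in 3 copies by 1.22 to 1.36, the vacuolar calcium exchanger CAX3 by 1.00 ± 0.10 and annexin ANN1 by 0.92 ± 0.12. RBOHD, an NADPH oxidase that makes reactive oxygen species, was the only gene of the group that fell. It had 13.9, 4.80 and 9.35 CPM at 60 min, against 19.5, 6.99 and 25.2 CPM at 15 min (log2 -0.83 ± 0.17, edgeR adjusted p = 0.0118).

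All 8 listed copies of genes for ABA synthesis, breakdown and transport were higher at 60 min, with a median log2 fold change of 1.75. ABA1 encodes zeaxanthin epoxidase, which makes a precursor of ABA. Its copy BnaA09g07610D had 8.21, 6.04 and 20.5 CPM at 60 min, against 0.322, 0.319 and 0.991 CPM at 15 min, a 21.5-fold difference (log2 4.42 ± 0.12, edgeR adjusted p = 1.70e-06). BnaC09g07550D had 6.70, 6.54 and 25.7 CPM at 60 min, against 0.908, 1.21 and 1.38 CPM at 15 min (3.24 ± 0.30). The copy BnaA07g12170D changed least, with 30.3, 30.6 and 23.8 CPM at 60 min, against 15.2, 16.3 and 8.41 CPM at 15 min (1.13 ± 0.11).

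The ABA exporter ABCG25 rose in both copies, by 2.49 ± 0.15 in BnaC06g32970D and 2.28 ± 0.48 in BnaA07g29760D, which had under 1 CPM in each library. ABCG31, another ABC transporter of ABA, rose in both copies by 1.23 ± 0.15 and 1.11 ± 0.14. CYP707A1, the hydroxylase that starts the breakdown of ABA, had copies that moved in opposite directions. BnaA03g43960D had 7.12, 12.2 and 17.5 CPM at 60 min, against 4.23, 8.34 and 7.50 CPM at 15 min, and rose (0.84 ± 0.13, edgeR adjusted p = 0.00274). BnaC01g11650D had 9.36, 7.53 and 16.1 CPM at 60 min, against 12.5, 10.2 and 22.5 CPM at 15 min, and fell (-0.45 ± 0.07, adjusted p = 0.00353). BnaAnng27240D fell by a smaller amount (-0.33 ± 0.08, edgeR adjusted p = 0.0216), and this call was lost with DESeq2 (adjusted p = 0.0512) and without replicate 1 (edgeR adjusted p = 0.175).

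The largest rises among the genes of the lists used here were in genes for late embryogenesis abundant (LEA) proteins. These are small hydrophilic proteins that accumulate in seeds and in drying tissue. The study's table of families with unequal copies, chosen on the 60-min libraries, lists 12 such genes as copies of the Arabidopsis genes AT3G15670, AT3G02480 and AT3G17520. Of these 7 were tested, and all 7 were higher at 60 min, with a median log2 fold change of 4.89. None of the 7 had overlapping groups, beside 13.3% of all genes tested without overlap in either direction. They supply 5 of the 8 largest rises among genes that rose in every replicate and averaged 50 counts or more per library.

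The AT3G15670 copy BnaC05g37670D had 166, 122 and 69.5 CPM at 60 min, against 2.60, 4.76 and 2.14 CPM at 15 min. Its rise of 5.23 ± 0.24 on the log2 scale was 37.4-fold (edgeR adjusted p = 1.31e-05). The AT3G17520 copy BnaC05g35990D had 41.2, 26.9 and 42.4 CPM at 60 min, against 1.35, 0.903 and 1.53 CPM at 15 min (log2 4.87 ± 0.08, edgeR adjusted p = 3.31e-07). The AT3G02480 copies BnaC03g32950D and BnaA03g27910D rose by 5.07 ± 0.25 and 4.89 ± 0.17, and the AT3G17520 copy BnaAnng35040D by 4.96 ± 0.14. The smallest rise was 2.70 ± 0.45 in BnaC03g40050D, another AT3G17520 copy, with 0.126, 0.491 and 0.161 CPM at 60 min, against 0.014, 0.089 and 0.020 CPM at 15 min. The 5 untested copies had at most 11 counts in a library at 60 min and at most 5 at 15 min, in libraries of at least 111165344 counts. Without the replicate block 6 of the 7 tested LEA genes were still called.

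**Figure D4:**
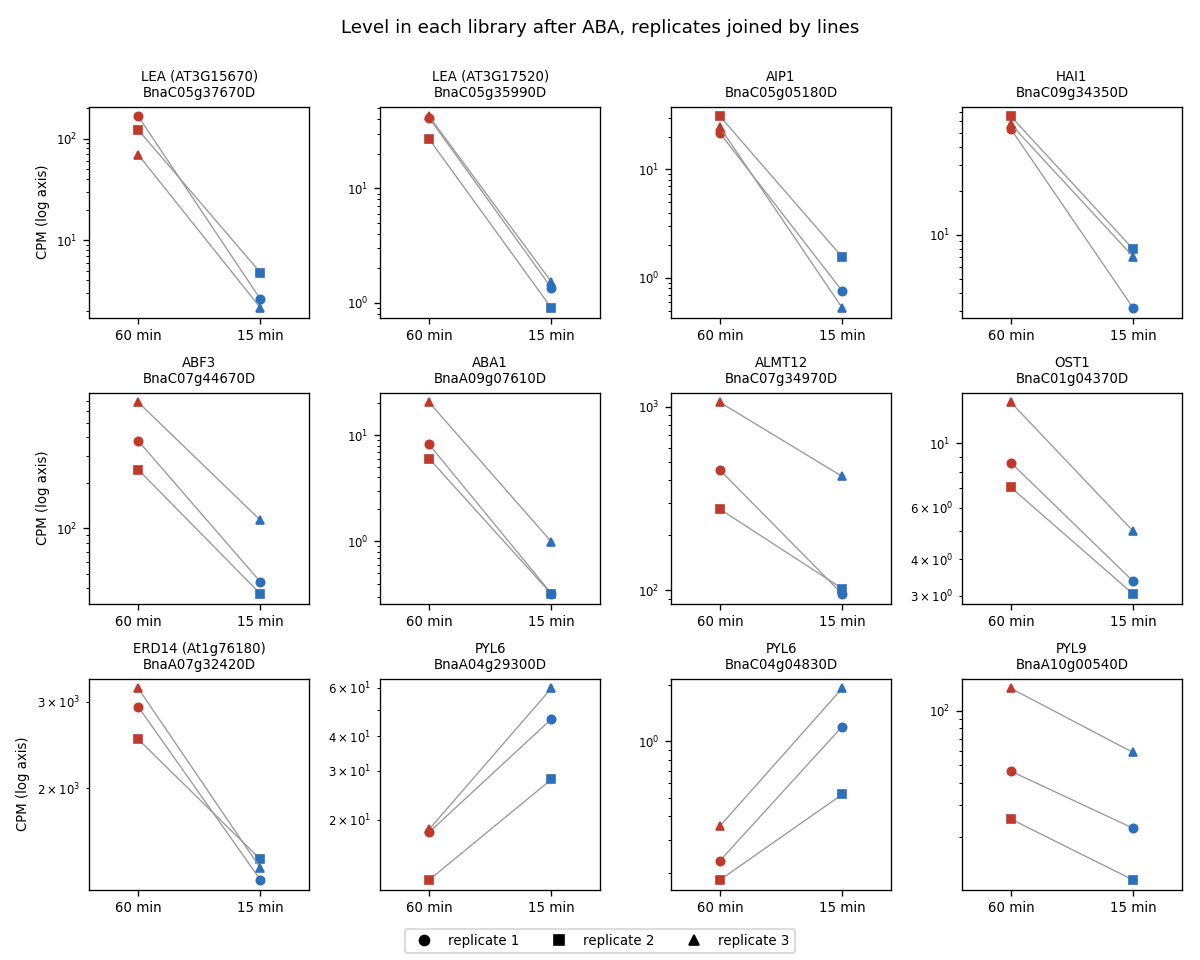
CPM of 12 gene copies in each library on a log axis, with the 60-min libraries (red) left of the 15-min libraries (blue) and a line joining the 2 libraries of each replicate. The 3 lines of a panel slope the same way, and the LEA, AIP1 and HAI1 groups are the most widely separated.

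Other families in that table held copies with unequal changes. TSPO, an ABA-induced membrane protein that binds tetrapyrroles, rose in 3 of 4 copies. BnaC04g51120D had 12.5, 17.6 and 9.47 CPM at 60 min, against 1.36, 2.44 and 1.10 CPM at 15 min (log2 3.05 ± 0.10). BnaA04g29550D and BnaA05g00220D rose by 2.79 ± 0.25 and 2.02 ± 0.20. The fourth copy, BnaC04g00110D, had 5.41, 6.59 and 6.10 CPM at 60 min, against 5.68, 6.15 and 4.23 CPM at 15 min and did not pass the test (0.18 ± 0.12, edgeR adjusted p = 0.329). The groups overlap in this copy and are apart in the other 3.

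Among the ANAC072 copies, BnaC01g19550D had 1.76, 1.44 and 0.532 CPM at 60 min, against 1.40, 1.03 and 0.692 CPM at 15 min and did not pass (0.18 ± 0.20), while the 3 others rose by 1.73 to 2.78. GALT2, a galactosyltransferase of the Golgi, rose in BnaC07g36550D (1.59 ± 0.14), with 9.49, 15.0 and 7.61 CPM at 60 min, against 2.31, 5.32 and 3.22 CPM at 15 min. The fall of GALT2 copy BnaA01g10960D, at -0.29 ± 0.09, lay at the threshold (edgeR adjusted p = 0.0499) and was not called with DESeq2 (adjusted p = 0.168), with RLE scaling (0.0515), without a filter on low counts (0.0511), or without replicate 1 (0.247) or 2 (0.165). The copy BnaC01g12450D did not pass (-0.29 ± 0.12). DJ1C, a plastid protein of the DJ-1 family, rose by 2.69 ± 0.20 in BnaA03g50810D, while BnaAnng26560D did not pass (0.23 ± 0.20). Its copy BnaC01g04310D rose by 0.54 ± 0.13, a call lost without any 1 of the 3 replicates, and the fourth copy had no count.

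Over the first table, the table of families with unequal copies and the table of transient genes, taken without the tables of targets and of promoter motifs, 34 Arabidopsis counterparts had 2 or more tested copies, 95 copies in all. In 24 of them all tested copies in these tables were higher at 60 min and in 3 all were lower. The 24 include ABF4, which has a further copy in the table of promoter motifs that did not pass, BnaA03g35190D. In 5 some copies passed and the rest did not, and only CYP707A1 and GALT2 had copies called in both directions, the GALT2 fall being the one at the threshold. The median spread between the copies of a counterpart was 0.37 log2 units, with the widest at 3.29 for ABA1. These counterparts were not a random sample of families, since the study chose its tables on these libraries.

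The study also listed 11 genes whose change at 15 min was no longer called at 60 min against mock, selected on these same libraries. Between the 2 exposures 2 of them were higher at 60 min, 3 were lower and 6 did not pass. STZ encodes a zinc-finger repressor induced by many stresses. Its copy BnaA09g27780D had 127, 45.9 and 149 CPM at 60 min, against 107, 33.0 and 88.0 CPM at 15 min (log2 0.49 ± 0.10, edgeR adjusted p = 0.0123), a call lost with total count scaling (adjusted p = 0.0797). The second STZ copy, BnaC05g21480D, had 219, 100 and 231 CPM at 60 min, against 227, 91.0 and 145 CPM at 15 min and did not pass (0.25 ± 0.13). The other rise was in BnaC06g40000D, a copy of AT1G79660, at 0.31 ± 0.08. This call was lost with DESeq2 (adjusted p = 0.0906) and, in edgeR, with upper-quartile scaling (adjusted p = 0.0788), with total count scaling (0.653), without replicate 1 (0.160) and without replicate 2 (0.152). The falls were the 2 CYP707A1 copies above and 1 gene without a named counterpart, at -0.66 ± 0.19. The metallothionein MT3, at 0.65 ± 0.26, did not pass (edgeR adjusted p = 0.117). Leaving out replicate 1 left 2 of the 5 calls.

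The light and jasmonate regulators MYC2 and HY5 were higher at 60 min by small amounts. MYC2 copy BnaC08g07580D had 8.82, 6.55 and 10.9 CPM at 60 min, against 5.52, 4.91 and 4.32 CPM at 15 min (log2 0.81 ± 0.16, edgeR adjusted p = 0.00929). The calls of the MYC2 copy BnaA05g18020D (0.32 ± 0.08) and of HY5 (0.62 ± 0.16) were lost with DESeq2, where the adjusted p was 0.0537 for the MYC2 copy and 0.0868 for HY5. In edgeR both were lost without replicate 1 (adjusted p = 0.195 for the MYC2 copy and 0.192 for HY5), without replicate 2 (0.116 and 0.0995) and with total count scaling (0.559 and 0.115), and the MYC2 copy also with upper-quartile scaling (0.0585). Of 27 genes listed as their targets 23 were higher, 1 was lower and 3 did not pass, with a median log2 fold change of 1.18. The study selected these targets for being differentially expressed in these samples. It lists CAB1 as repressed by MYC2 and gives most HY5 pairs an unknown type. Whether the targets followed the regulators was not tested. They include the rising ANAC072 copies described above.

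The list member with the highest CPM was a target, the At1g76180 copy BnaA07g32420D, which encodes the dehydrin ERD14, a protein that protects cells during drying. It had 2933, 2518 and 3199 CPM at 60 min, against 1300, 1432 and 1373 CPM at 15 min (log2 1.07 ± 0.12, edgeR adjusted p = 0.000607), and was singled out after its values were seen. The 5 ERD14 copies rose by 0.99 to 1.40. At1g19000, a MYB-like factor, rose in 4 copies, most in BnaA08g22290D (2.08 ± 0.12), with 40.9, 26.1 and 84.5 CPM at 60 min, against 9.12, 8.10 and 16.5 CPM at 15 min. The aquaporin gene At2g37180 rose in 4 copies by 0.76 to 1.40, and chalcone isomerase (CHI) in both copies, by 1.68 ± 0.27 and 1.66 ± 0.18.

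RD22, a dehydration-induced gene, had a response that differed in size between replicates. BnaA06g39340D had 4.90, 3.46 and 33.0 CPM at 60 min, against 2.57, 2.75 and 5.20 CPM at 15 min. Replicate 3 at 60 min stands far above the rest, and the calls of both RD22 copies (1.39 ± 0.38 and 1.76 ± 0.39) were lost with DESeq2 and without replicate 1. ADH1, alcohol dehydrogenase, did not pass in either copy with edgeR (adjusted p = 0.0634 and 0.0638), while DESeq2 called both (adjusted p = 0.0106 and 0.0116). CAB1 rose by 0.42 ± 0.09, a call lost with total count scaling (edgeR adjusted p = 0.122) and without replicate 1 (0.0611). The only target that fell was At3g16320, a subunit of the anaphase-promoting complex, at -0.56 ± 0.13, a call lost without replicate 1 (edgeR adjusted p = 0.0748) or 2 (0.0946).

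A last table pairs transcription factors with motifs found in promoters of genes that the study called induced. It lists 43 B. napus copies, fewer factors than the study's text counts. Of the 35 tested, 20 were higher at 60 min, none was lower by the TMM scale and 15 did not pass. The rises belonged to few families. G-box factors listed together as GBF1, BZIP54 and GBF3 rose in all 8 tested copies, by 0.60 to 2.74. The largest was BnaCnng01910D, with 40.9, 26.8 and 84.9 CPM at 60 min, against 5.29, 4.91 and 12.2 CPM at 15 min (edgeR adjusted p = 6.13e-06), and the next were BnaC04g01070D at 2.34 ± 0.13 and BnaA09g00170D at 2.17 ± 0.08. HSFC1, a heat shock factor, rose in 3 of 4 copies. The rest were the 4 copies listed as ABF1 and ABF2 and 5 of 6 ABF4 copies. Those 5 ABF4 copies and both ABF2 copies named earlier were already counted among the ABA-related transcription factors. The ABF4 copy BnaA03g35190D had 0.618, 0.395 and 2.02 CPM at 60 min, against 0.594, 0.434 and 1.51 CPM at 15 min, with overlapping groups, and did not pass (0.17 ± 0.19, edgeR adjusted p = 0.591).

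No tested copy of ERF1, TGA1, RAV2, MYB2, VOZ1, ARF1 or CBF2 in that table was called. Other copies of TGA1, RAV2, MYB2 and VOZ1 had too few counts to test. The largest of their changes was that of the ERF1 copy BnaA07g06760D, at -0.85 ± 0.33, which had 0.270, 0.279 and 0.093 CPM at 60 min, against 0.443, 0.381 and 0.278 CPM at 15 min. With total count scaling 6 of the 35 copies were called lower. MYB30 and the heat shock factor HSFA7A, both named in the study's text, rose by 0.37 ± 0.08 and 0.53 ± 0.12. Both calls were lost without replicate 1, without replicate 2 and with total count scaling.

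Outside the lists, genes could not be named, because the files and the reference table pair the IDs with no names. The largest rise of all was in BnaA06g26620D, with 0.714, 0.597 and 16.5 CPM at 60 min, against 0.007, 0.035 and 0.034 CPM at 15 min. Replicate 3 stands far above the other 60-min libraries, and the log2 fold change of 7.83 ± 0.51 ranged from 4.95 to 8.62 over the alternatives. Its counts at 15 min were only 1, 4 and 5. BnaC07g30350D showed the same pattern, with 0.879, 0.915 and 17.8 CPM at 60 min, against 0.143, 0.071 and 0.054 CPM at 15 min (log2 5.72 ± 0.83, with a range of 3.02 to 7.14 over the alternatives). The lowest value of both genes was the one without replicate 3. Among the falls, BnaA08g15560D had 0.193, 0.202 and 0.144 CPM at 60 min, against 1.36, 1.12 and 1.10 CPM at 15 min (log2 -2.73 ± 0.22, edgeR adjusted p = 0.000173). Its replicates agreed, and it was the single gene called lower among those followed that also passed without the replicate block. BnaC06g25020D had 1.15, 0.539 and 0.972 CPM at 60 min, against 3.29, 1.90 and 7.06 CPM at 15 min (log2 -2.10 ± 0.24).

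The changed genes with the highest CPM moved little. The gene with the highest mean level among those called higher had 9040, 15059 and 6986 CPM at 60 min, against 5115, 10412 and 5236 CPM at 15 min, a log2 fold change of 0.59 ± 0.13 (edgeR adjusted p = 0.0150). Its replicates differed more from each other than the exposures did. The 5 genes called higher with the highest CPM rose by 0.46 to 0.72, and those called lower fell by 0.36 to 0.44 on the log2 scale. Genes that were counted at only 1 of the 2 times all had few counts. There were 54 with a count in every 60-min library and in no 15-min library, with at most 11 counts in a library, and 235 of the reverse kind, with at most 20.

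**Figure D5:**
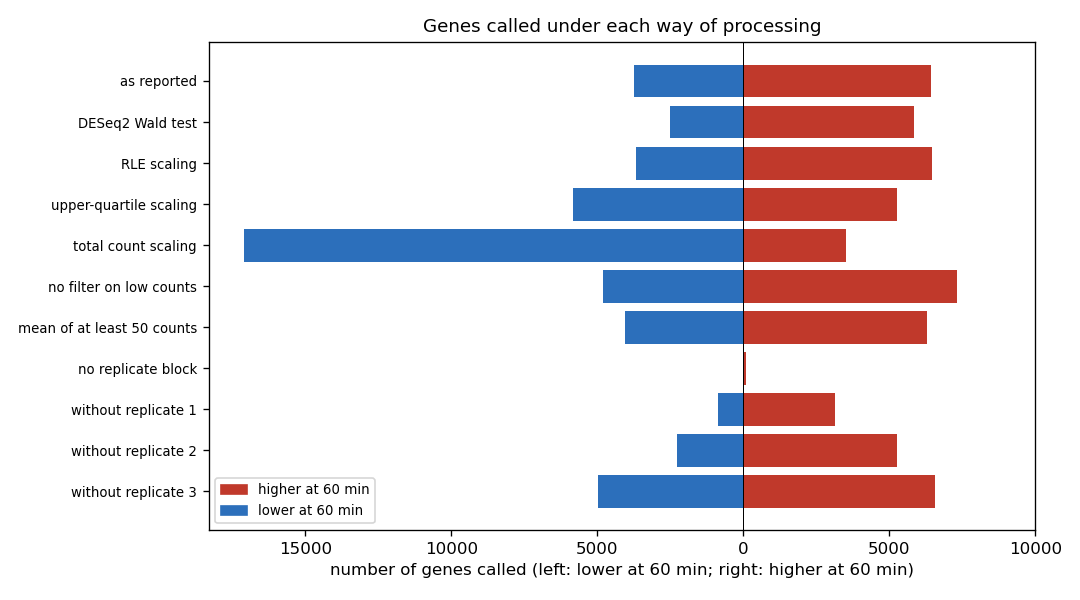
Number of genes called higher at 60 min (red, to the right) and lower at 60 min (blue, to the left) as reported and under each alternative way of processing. The replicate block and the scaling change the picture most: 94 genes are called without the block, and with total count scaling 3524 are called higher and 17086 lower.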

How the data were processed

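RNA of guard cell protoplasts was sequenced as single-end reads of 100 bases. The authors used TopHat2 for alignment, with Darmor as the genome, and HTSeq for counting, and left out multi-mapped reads. The deposited values are the resulting raw counts of each gene, not normalized. The version of the tools, the release of the annotation and the strand setting of the counting are not given in the sources used here, which leaves values of overlapping genes and of near-identical copies uncertain.

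The 6 ABA columns were assigned by label, and the 3 mock columns were left out. Genes were kept with filterByExpr of edgeR 4.0.16 (R 4.3.3), libraries were scaled by TMM, and 60 min was compared with 15 min by the quasi-likelihood test with the replicate number as a block, which leaves 2 residual degrees of freedom. P-values were adjusted by Benjamini-Hochberg over all 51117 genes tested, with a threshold of 0.05, and genes below it are called higher or lower. Standard errors were derived from the log2 fold change and the F statistic. Levels were expressed as CPM with TMM-scaled library sizes. CPM is not corrected for gene length, so levels of different genes were not compared, and a gene with the highest CPM is one that took the most reads. Total counts per library were at least 111165344, and the median standard error over tested genes was 0.12. Direction within replicates was read from log2 CPM with a prior count of 2. The scripts were tested on simulated data.

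The replicate numbers pair the libraries, as in the model of the study's methods. Deviations from the group means correlated at 0.742, 0.764 and 0.791 between libraries of the same number, and from -0.570 to -0.149 between different numbers. Such deviations cancel out within a group. Positive values for the same number therefore make the others negative on average, and the negative values add no separate evidence of pairing. No libraries of a group were near copies, with a chi-square per degree of freedom of at least 150.

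The members and gene lists were chosen with earlier results of these data known. MYB30 and HSFA7A were added after the files had been read. Named genes are, among genes called that averaged 50 counts or more and moved alike in 3 of 3 replicates, the 8 largest rises, the 8 largest falls and the 5 of highest mean CPM each way, with at most 2 unnamed rises and 2 unnamed falls printed. Of each list the 3 largest changes are covered, some only within a range. Lists or families of up to 4 genes were also meant to be named. Some of their members are covered only by a range or count, and some are not printed. Other named copies were chosen after their values were seen. A search for names in the reference table gave none, since 3347 IDs equal a symbol there that is the ID itself, 2 of them with a synonym. Alternatives were DESeq2 1.42.0, RLE, upper-quartile and total count scaling, no filter on low counts, a mean of at least 50 counts, no replicate block, and leaving out each replicate number.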

Additional observations from a re-analysis of the deposited data

How the results depend on the processing

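The fit with the replicate block was the one reported. Without it the paired design is ignored, and 94 genes were called, 93 higher and 1 lower, all 94 past 2-fold, with 47 in each subgenome, while 3835 genes had an unadjusted p under 0.05. By list this fit called 4 PP2Cs, 4 members of the families of unequal copies, 2 ABA transcription factors, 1 of the channels, transporters and other ABA genes and 1 MYC2 and HY5 target. It called 0 of the receptors, of the synthesis, breakdown and transport genes, of the kinases and of the genes listed as transient. It also called 0 of MYB30 and HSFA7A, of MYC2 and HY5, and of the factors with promoter motifs. Among the LEA families all tested genes but BnaC03g40050D stayed called.

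With total count scaling 20610 genes were called, 3524 higher and 17086 lower, of which 9864 were in the A and 10700 in the C subgenome. It called 0 of MYB30 and HSFA7A and 1 of MYC2 and HY5. The list medians of log2 fold change were then 1.51 for ABA transcription factors, 1.26 for channels, transporters and other ABA genes, 1.45 for PP2Cs, 1.60 for families of unequal copies, 0.014 for the genes listed as transient, 0.67 for kinases, 4.64 for LEA families, 0.20 for MYB30 and HSFA7A, 0.37 for MYC2 and HY5 and 0.43 for the factors with promoter motifs. Upper-quartile scaling called 5849 genes lower and gave the PP2Cs a median of 1.63. With a mean of at least 50 counts the medians were 1.74 for PP2Cs and 1.21 for the synthesis, breakdown and transport genes. DESeq2 called 3 of the genes listed as transient and 1 of MYC2 and HY5.

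When each replicate number was left out in turn, 4029 to 11546 genes were called, 3144 to 6579 higher, 885 to 4967 lower and 1464 to 2029 past 2-fold, with 1959 to 5663 in the A and 2063 to 5862 in the C subgenome. Calls ranged over 16 to 17 among ABA receptors, 8 to 8 among ABA synthesis, breakdown and transport genes, 19 to 20 among ABA transcription factors, 12 to 12 among channels, transporters and other ABA genes, 18 to 19 among the PP2Cs and 10 to 11 among the families of unequal copies. They ranged over 2 to 5 among the genes listed as transient, 7 to 9 among the kinases, 7 to 7 among the LEA families, 0 to 2 among MYB30 and HSFA7A, 1 to 3 among MYC2 and HY5, 20 to 26 among the MYC2 and HY5 targets and 18 to 20 among the factors with promoter motifs. List medians ranged over -1.43 to -0.96 for ABA receptors, 1.50 to 1.78 for ABA synthesis, breakdown and transport genes, 1.68 to 1.84 for ABA transcription factors, 1.30 to 1.64 for channels, transporters and other ABA genes, 1.65 to 1.74 for the PP2Cs and 1.76 to 1.95 for the families of unequal copies. They ranged over 0.12 to 0.30 for the genes listed as transient, 0.87 to 1.19 for the kinases, 4.63 to 4.97 for the LEA families, 0.36 to 0.56 for MYB30 and HSFA7A, 0.53 to 0.61 for MYC2 and HY5, 0.96 to 1.29 for the MYC2 and HY5 targets and 0.49 to 0.83 for the factors with promoter motifs.

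Among the 175 single genes followed, direction turned only in genes that did not pass as reported, while other genes were not followed for it. With total count scaling the log2 fold changes were -0.072 for BnaC01g19550D, -0.029 for BnaAnng26560D, -0.068 for BnaC04g00110D and -0.095 for BnaA03g35190D. Leaving out each replicate number in turn gave -0.098 to 0.44 for BnaA09g11950D, -0.0021 to 0.31 for BnaC04g00110D, -0.045 to 0.26 for BnaA03g35190D, -0.18 to 0.026 for BnaA01g23940D and -0.39 to 0.57 for BnaA06g24140D. Of 146 followed genes that passed, 123 passed in the same direction under every alternative with the block, and 16 of these also without it. The cause of these differences was not tested. With 3 libraries a group and 2 residual degrees of freedom, precision was limited, and genes with few counts were called less often, and nothing here separates ABA exposure from time in the light.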
